A study of Mus musculus with 7 samples.

Results

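The genes described here are the 29 genes of fatty acid oxidation and ketone body metabolism that were matched by symbol, through their Ensembl identifiers, in the gene table of mouse colon tumors. They are 29 of 43346 genes in the table, and all 29 had enough counts to be among the 15810 genes tested. They comprise 18 genes of mitochondrial oxidation, 3 ketone body enzymes, 3 enzymes of peroxisomal oxidation, 2 acyl-CoA synthetases, and 3 regulators, namely the receptors Ppara and Pparg and the coactivator Ppargc1a.

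Fatty acids are activated to acyl-CoA by acyl-CoA synthetases and enter mitochondria as carnitine esters through the carnitine shuttle. Inside, the beta-oxidation spiral removes acetyl-CoA in steps catalyzed by acyl-CoA dehydrogenases, hydratases, hydroxyacyl-CoA dehydrogenases and thiolases, and the electron transfer flavoprotein passes the electrons to the respiratory chain. Peroxisomes shorten very long and branched chains with a separate set of enzymes. Ketone bodies are made from acetyl-CoA or burned by the reverse route, and colonocytes are known for using butyrate, a short fatty acid from gut bacteria, as a main fuel. Many of these genes are known targets of the PPAR nuclear receptors.

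The 7 whole colon tumors, which the labels mark as biological replicates, came from irradiated wild-type recipients congenic to the donors. Of these, 3 tumors had Dnmt3a(+/+) bone marrow (BM) and 4 had Dnmt3a(+/-) BM. The second genotype models clonal hematopoiesis with heterozygous loss of the DNA methyltransferase Dnmt3a. Donors, on a C57BL6/J background, carried Mx1-Cre and received poly(I:C). The deletion thus lay in the graft, and the colon epithelium of the recipients was wild-type. After transplantation all mice received 1 injection of the carcinogen azoxymethane (AOM, 10 mg/kg). Dextran sulfate sodium (DSS, 3%), which inflames the colon, was then given in 3 cycles of 1 week, each followed by 2 weeks without it. The labels give the age of the recipients as 8 weeks, and the study's methods give a younger age. The animal codes in the labels begin with BMT18 (2 tumors of each group) or BMT8 (1 tumor with Dnmt3a(+/+) BM and 2 with Dnmt3a(+/-) BM). These prefixes are read here as transplantation experiments, which the codes themselves do not spell out. Polyadenylated RNA was sequenced to 38472738 to 64314999 counts per tumor, and levels are given as CPM, the count of a gene relative to the TMM-scaled library total. Values of single tumors stand in the order of the replicate numbers. Fold changes are Dnmt3a(+/-) BM over Dnmt3a(+/+) BM from edgeR's quasi-likelihood test, and called genes are those that pass both an adjusted p of 0.05 and an absolute log2 fold change of 1.

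Levels of cell type markers differed between the tumors. With Dnmt3a(+/-) BM, 11 of 12 colon epithelium markers had a log2 fold change under 0 (median -0.58), with Epcam at -0.48, Cdx1 at -1.15 and Cdx2 at 0.79. Their summed level was 20539 to 39798 CPM with Dnmt3a(+/+) BM and 11077 to 25194 CPM with Dnmt3a(+/-) BM. Of 7 endothelial markers, 7 were above 0 (median 1.90; Pecam1 1.56), with a summed level of 14.5 to 27.6 CPM against 24.7 to 159 CPM. Dnmt3a(+/-) replicate 2 held the highest endothelial and fibroblast levels, with Col1a1 at 239 CPM against 13.2 to 43.3 CPM in the other 6 tumors, and Dnmt3a(+/+) replicate 3 had 22.6 CPM of summed smooth muscle markers against 243 to 1167 CPM elsewhere. Dnmt3a itself stood at 20.2 to 24.3 CPM with Dnmt3a(+/+) BM and 22.0 to 43.0 CPM with Dnmt3a(+/-) BM, which does not check the genotype, since the labels place the deletion in the bone marrow. In whole tumors, fewer cells of a type and less RNA per cell cannot be told apart.

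Promoter sequence is shown for 5 of the genes. Many of the 29 are known targets of PPAR nuclear receptors, and Hadha and Hadhb share their start region. The sequences are from RefSeq (GRCm38.p6), 5′ to 3′ on the strand of the gene, and hold only bases before the start that lie outside annotated exons. Capitals mark the hexamer AGGTCA, the core letters that nuclear receptors of this class read, or its reverse complement. The first is Slc25a20 (chr9:108661886-108662087, plus strand), the second Cpt1a (chr19:3323051-3323284, plus strand), then Acadvl (chr11:70015429-70015678, minus strand), Acadm (chr3:153944644-153944893, minus strand) and the 85 bases between the starts of Hadha and Hadhb (chr5:30155163-30155247, written on the Hadhb strand, plus).
Slc25a20: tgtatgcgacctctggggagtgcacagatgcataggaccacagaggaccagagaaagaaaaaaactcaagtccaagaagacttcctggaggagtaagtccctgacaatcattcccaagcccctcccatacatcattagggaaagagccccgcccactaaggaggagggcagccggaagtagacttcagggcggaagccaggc
Cpt1a: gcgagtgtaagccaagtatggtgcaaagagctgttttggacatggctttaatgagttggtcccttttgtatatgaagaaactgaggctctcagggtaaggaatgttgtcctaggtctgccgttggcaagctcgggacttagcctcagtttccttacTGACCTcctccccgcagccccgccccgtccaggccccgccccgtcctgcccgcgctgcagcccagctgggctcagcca
Acadvl: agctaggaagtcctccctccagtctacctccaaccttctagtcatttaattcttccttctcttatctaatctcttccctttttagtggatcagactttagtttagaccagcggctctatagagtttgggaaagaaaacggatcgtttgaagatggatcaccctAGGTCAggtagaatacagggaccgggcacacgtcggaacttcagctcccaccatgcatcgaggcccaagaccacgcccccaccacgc
Acadm: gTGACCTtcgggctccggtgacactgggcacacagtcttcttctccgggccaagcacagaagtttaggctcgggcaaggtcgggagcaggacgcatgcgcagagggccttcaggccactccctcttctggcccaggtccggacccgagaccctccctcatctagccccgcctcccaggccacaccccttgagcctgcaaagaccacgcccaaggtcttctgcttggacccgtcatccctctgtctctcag
Hadha-Hadhb: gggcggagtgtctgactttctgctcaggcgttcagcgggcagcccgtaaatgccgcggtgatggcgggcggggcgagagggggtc

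Promoter entries existed for 25 of the 29 genes. In the 250 bases before the start, on both strands, AGGTCA was found in 5 of these 25 genes (20.0%), Cpt1a, Acadvl, Acadm, Echs1 and Pparg, and in 14.0% of 32851 promoters. The 25 genes had 29 promoter entries, and for every motif a gene counted if any of its entries matched. The share of all promoters counts each entry singly, so the shares are not fully alike. The DR1 motif of PPAR, AGGTCANAGGTCA, contains AGGTCA at both ends. With up to 1 mismatch it was in 0 of the 25 genes and in 0.484% of all promoters, and with up to 2 mismatches in Echs1 and Etfa and in 3.24% of all promoters. The longer letters TNAAGGTCA, which also contain AGGTCA, were in 0 of the 25 genes and in 1.14% of all promoters. The promoters of the 25 genes had a median GC content of 58.8%, and those of all genes 52.4%. These matches are letters in short windows and no binding was measured in these tumors.

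With Dnmt3a(+/-) BM the genes of fatty acid oxidation and ketone bodies stood lower by a modest amount, with 27 of 29 at a log2 fold change under 0 against 49.8% of all genes tested. No gene of the 29 was called, and 0% of all 15810 genes were called by edgeR. Adjusted p ranged from 0.361 to 0.961 (edgeR, Benjamini-Hochberg over all genes). At an unadjusted p under 0.05, 9 of the 29 (31%) were lower, against 5.20% of all genes, and 0 were higher, against 5.83%. The 9 were Cpt1a, Slc25a20, Acadvl, Acads, Hadh, Decr1, Etfa, Oxct1 and Ehhadh. In 8 genes (27.6%) every tumor with Dnmt3a(+/-) BM lay below every tumor with Dnmt3a(+/+) BM, against 6.32% of all genes, and 0 lay above without overlap, against 6.12%. Dnmt3a(+/-) replicate 2 was the lowest of all 7 tumors for 17 of the 29 genes, and Dnmt3a(+/+) replicate 2 the highest for 14. Without Dnmt3a(+/-) replicate 2, 25 of 29 were lower, and 2 were lower at an unadjusted p under 0.05. That count was 1 without Dnmt3a(+/+) replicate 2, 3 without Dnmt3a(+/+) replicate 1 or Dnmt3a(+/-) replicate 3, and 4 without Dnmt3a(+/-) replicate 4. Without Dnmt3a(+/+) replicate 3, 17 genes did not overlap between groups in place of 8. With fewer tumors any gene is less likely to overlap, and the share of all genes is not given for that split. The 17 therefore cannot be set against the 8.

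**Figure D1:**
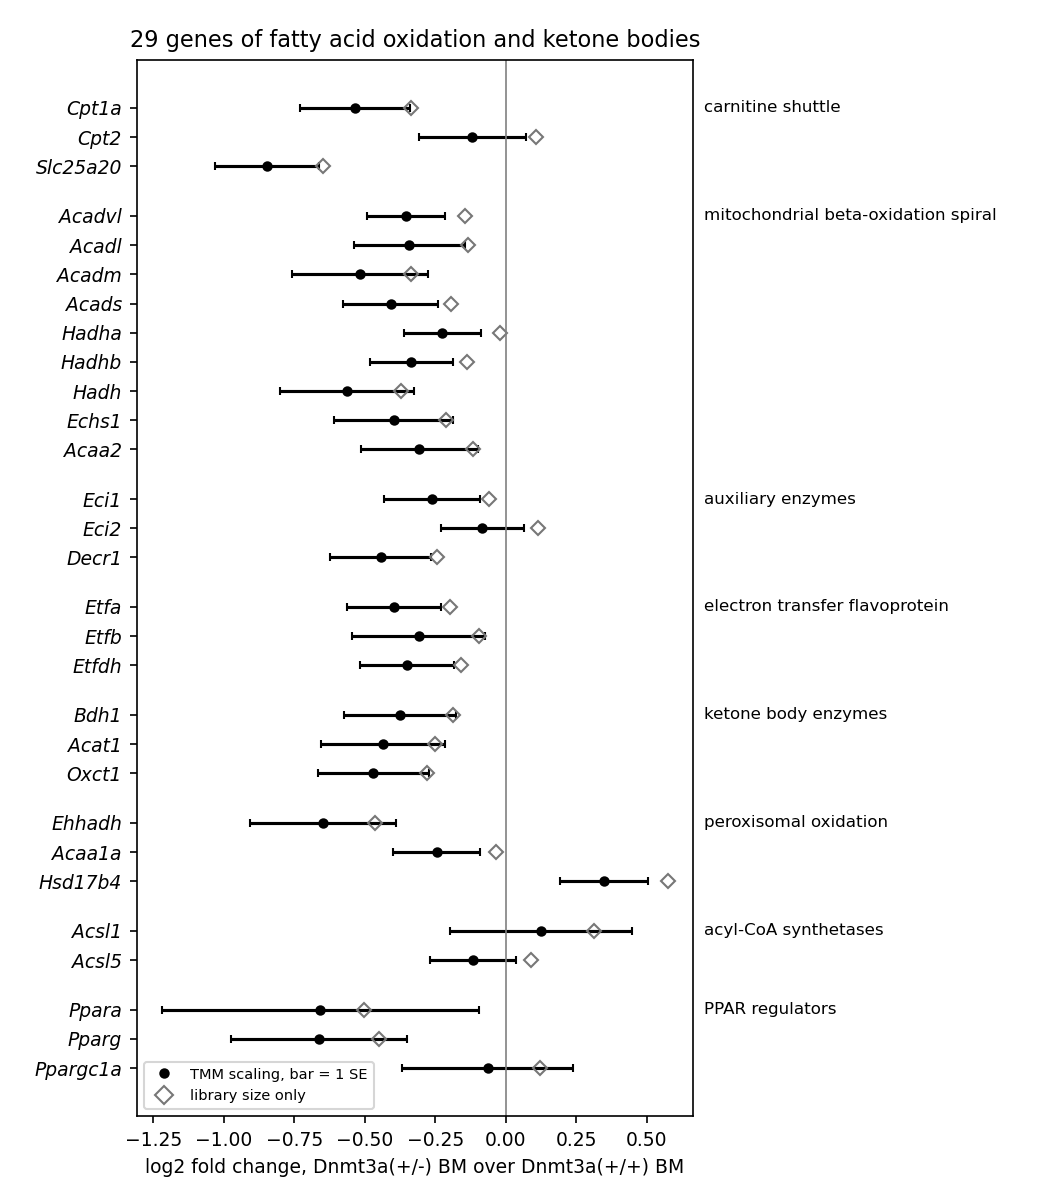
Log2 fold change of each of the 29 genes, Dnmt3a(+/-) BM over Dnmt3a(+/+) BM, by role (points, TMM scaling, bars 1 SE; open diamonds, scaling by library size only). With TMM scaling 27 genes lie under 0, Slc25a20 farthest at -0.85, and Hsd17b4 and Acsl1 lie above 0; with library size only, 23 lie under 0.

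The size of this difference depended on the scale. When only library size was used, the median of all tested genes moved to 0.21, and 23 of the 29 genes stayed under 0, against 29.6% of all genes. Cpt2, Eci2, Acsl5 and Ppargc1a then stood above 0, as Hsd17b4 and Acsl1 did on both scales. Overlap between groups is given on the TMM scale throughout. On library size alone 2 of the 29 genes were lower without overlap, in place of 8. The share of all genes without overlap is not given on that scale, so these 2 have no background. Relative to the mean of the 12 epithelium markers, which were themselves lower, 25 of the 29 genes stood above 0 and 4 (Cpt1a, Slc25a20, Ehhadh and Pparg) below, with 87.5% of all genes above 0 on that scale. Relative to 16 genes of the tricarboxylic acid (TCA) cycle, the central mitochondrial route for acetyl-CoA, 22 of 29 stood below 0, against 28.9% of all genes. How far the epithelial share of each tumor set the levels was not tested.

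**Figure D2:**
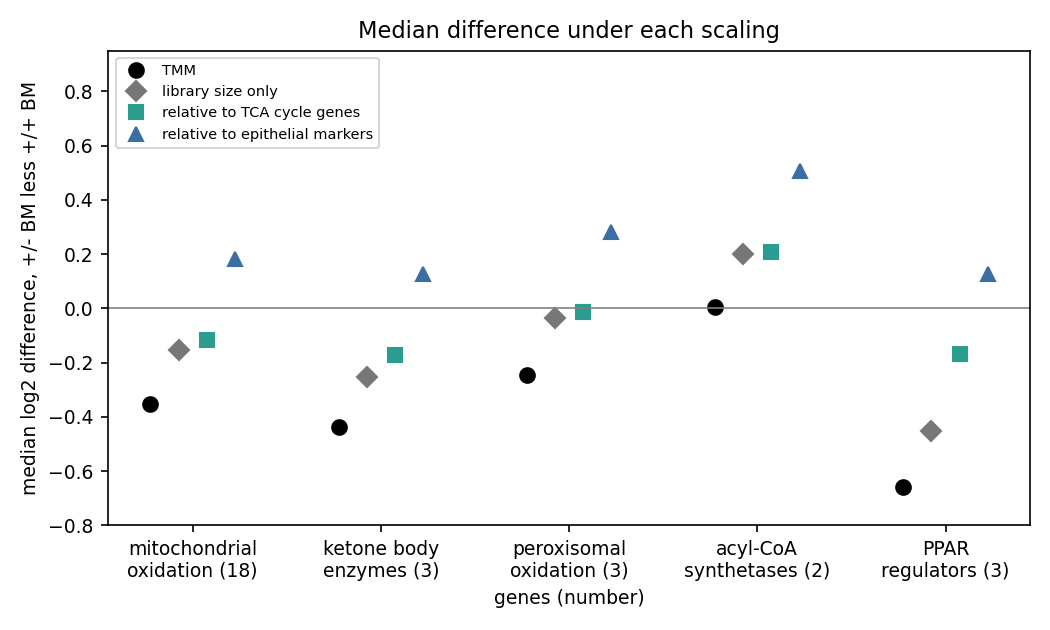
Median log2 difference of the genes of each role (number in brackets) on 4 scales. Mitochondrial oxidation lies at -0.35 with TMM, -0.15 with library size only, -0.12 relative to TCA cycle genes and 0.18 relative to epithelial markers.

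The carnitine shuttle had the gene with the largest difference. Slc25a20, the carnitine-acylcarnitine carrier of the inner mitochondrial membrane (chromosome 9, 108662088 to 108684641), had 239, 197 and 187 CPM with Dnmt3a(+/+) BM and 118, 87.7, 134 and 123 CPM with Dnmt3a(+/-) BM. Its groups did not overlap. The means were 208 ± 27.4 (SD, n = 3) and 116 ± 19.9 (SD, n = 4) CPM, a log2 fold change of -0.85 ± 0.18 (SE, adjusted p = 0.361 by edgeR). By DESeq2 Slc25a20 was lower with an adjusted p of 0.0201, the only 1 of the 29 genes under 0.05, where 0.513% of all genes were lower at that level. That adjusted p was 0.193 without Dnmt3a(+/+) replicate 1, 0.205 without Dnmt3a(+/+) replicate 2 and 0.0518 without Dnmt3a(+/-) replicate 4. On library size alone its log2 fold change was -0.65 ± 0.18 (SE), and relative to the epithelium markers -0.33.

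Cpt1a, which makes the carnitine esters at the outer membrane and is the rate-controlling step of entry, had 187, 179 and 139 CPM with Dnmt3a(+/+) BM and 148, 100.4, 119 and 98.3 CPM with Dnmt3a(+/-) BM. The groups overlapped through Dnmt3a(+/+) replicate 3 and Dnmt3a(+/-) replicate 1. Its log2 fold change was -0.53 ± 0.20 (SE, adjusted p = 0.413 by edgeR). Cpt2, which returns the acyl groups to CoA on the inside, differed by -0.12 ± 0.19 (SE), with 44.2 to 65.4 CPM and 38.5 to 56.1 CPM. The ratio of Slc25a20 to Cpt2 counts within a tumor, which no scaling affects, was 5.40, 3.85 and 2.87 with Dnmt3a(+/+) BM and 3.06, 1.72, 2.58 and 2.20 with Dnmt3a(+/-) BM. The carrier thus stood lower relative to Cpt2 in 3 of the 4 tumors with Dnmt3a(+/-) BM than in any with Dnmt3a(+/+) BM, a ratio that was chosen after the values were seen.

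**Figure D3:**
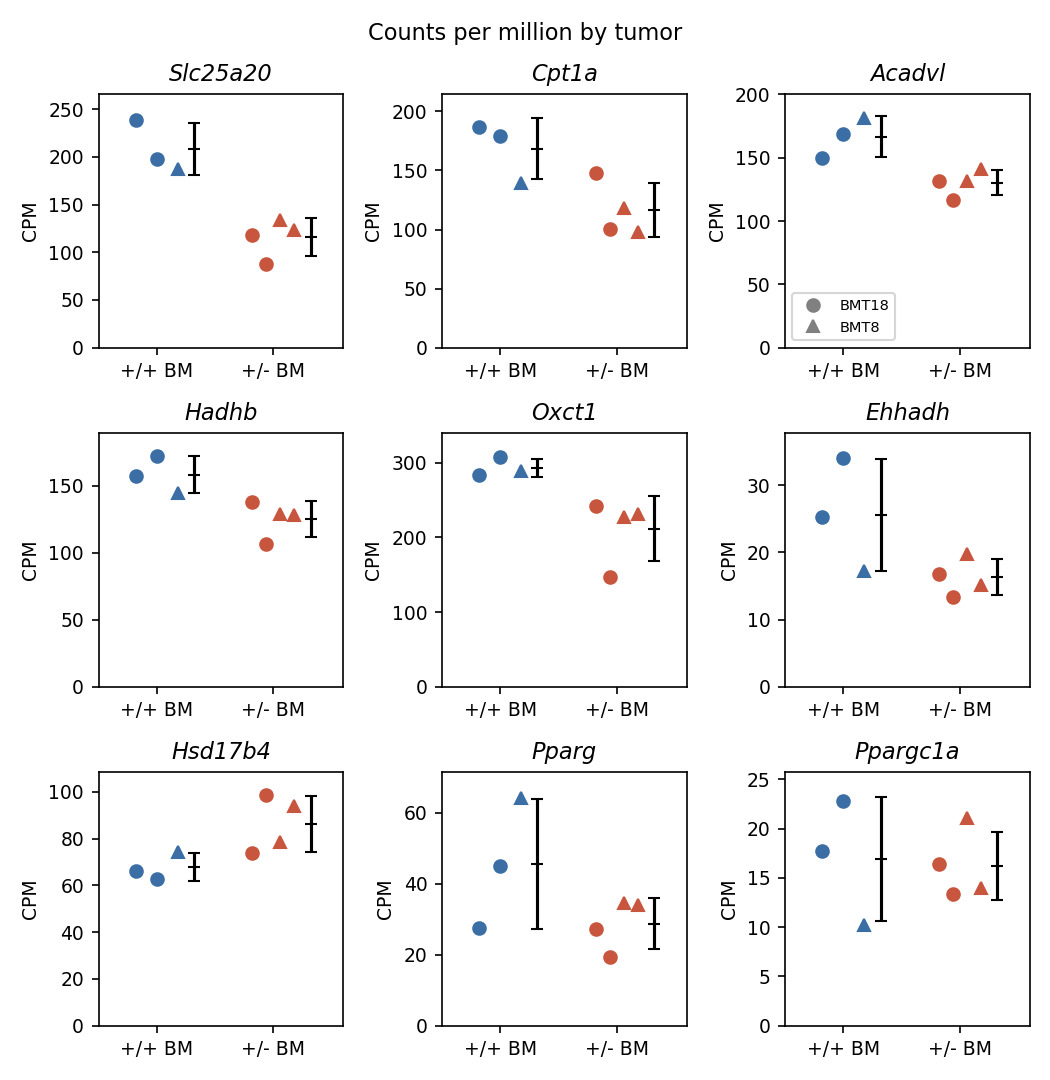
CPM of 9 of the genes in each tumor by donor Dnmt3a genotype (circles BMT18, triangles BMT8; black bars, mean ± SD of 3 and 4 tumors). Slc25a20, Acadvl, Hadhb and Oxct1 do not overlap between groups. Hsd17b4 has a higher mean with Dnmt3a(+/-) BM, with overlap between groups. The Ppargc1a values with Dnmt3a(+/-) BM lie within the range of the other group.

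All 9 genes of the beta-oxidation spiral had log2 fold changes under 0, from -0.56 (Hadh) to -0.23 (Hadha), and they remained under 0 on library size alone. The acyl-CoA dehydrogenases take the first step, each for a range of chain lengths. Acadvl, for very long chains (chromosome 11, 70010183 to 70015411), had 149, 169 and 181 CPM with Dnmt3a(+/+) BM and 131, 117, 131 and 141 CPM with Dnmt3a(+/-) BM, without overlap, at -0.35 ± 0.14 (SE). Acads, for short chains such as butyrate, had 92.3, 114 and 91.3 CPM against 59.2, 84.4, 79.3 and 76.2 CPM, also without overlap, at -0.41 ± 0.17 (SE). Acadm, for medium chains, ran from 91.0 to 151 CPM and from 68.7 to 115 CPM. Acadl, for long chains, ran from 277 to 396 CPM and from 216 to 312 CPM, and the groups overlapped for both. Per kilobase of exon Acadl was the most abundant of the 29 genes, at 168 ± 29.5 CPM per kb (SD, n = 3) with Dnmt3a(+/+) BM, a level that did not differ beyond the spread from that of Etfb at 166 ± 36.6 CPM per kb.

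The trifunctional protein carries out the remaining steps for long chains, and Hadha and Hadhb encode its alpha and beta subunits. The genes lie head to head on chromosome 5, Hadha at 30118304 to 30155162 and Hadhb at 30155248 to 30184593, around the 85 bases shown above. Hadhb had 157, 172 and 145 CPM with Dnmt3a(+/+) BM and 138, 106, 129 and 128 CPM with Dnmt3a(+/-) BM. Hadha had 206, 220 and 208 CPM against 201, 164, 186 and 172 CPM. Neither gene overlapped between groups, with log2 fold changes of -0.34 ± 0.15 (SE) for Hadhb and -0.23 ± 0.14 (SE) for Hadha. The ratio of Hadha to Hadhb counts was 1.34 ± 0.0838 (SD, n = 3) and 1.45 ± 0.0821 (SD, n = 4). It ran from 1.28 to 1.54 over the 7 tumors, and the groups overlapped.

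For shorter chains the hydratase Echs1, the dehydrogenase Hadh and the thiolase Acaa2 act one after another. Hadh had 206, 236 and 123 CPM with Dnmt3a(+/+) BM and 135, 118, 147 and 109 CPM with Dnmt3a(+/-) BM. Its low value with Dnmt3a(+/+) BM was the single BMT8 tumor of that group. Within BMT18 the difference in mean log2 CPM was -0.80 and within BMT8 0.04, and the difference between experiments had an unadjusted p of 0.0493 (adjusted p = 1.00 by edgeR). Echs1 had -0.57 in BMT18 and 0.11 in BMT8, and Acaa2 stood at -0.31 ± 0.21 (SE) over all tumors.

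The auxiliary enzymes prepare unsaturated fatty acids for the spiral, and their log2 fold changes ran from -0.44 to -0.08. Decr1, the dienoyl-CoA reductase, had 55.6, 64.0 and 44.1 CPM with Dnmt3a(+/+) BM and 34.7, 36.3, 47.6 and 42.0 CPM with Dnmt3a(+/-) BM, at -0.44 ± 0.18 (SE). The groups overlapped. The isomerases Eci1 and Eci2 stood at -0.26 ± 0.17 and -0.08 ± 0.15 (SE). Of the electron transfer flavoprotein, the alpha subunit Etfa had 174, 177 and 190 CPM against 151, 110, 127 and 159 CPM without overlap, at -0.40 ± 0.17 (SE). The beta subunit Etfb ran from 166 to 242 CPM and from 126 to 207 CPM, with overlap, at -0.31 ± 0.24 (SE). Etfdh, which hands the electrons to ubiquinone, stood at -0.35 ± 0.17 (SE).

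The 3 ketone body enzymes had log2 fold changes from -0.47 to -0.38, and 2 of them did not overlap between groups. Oxct1, which commits ketone bodies to oxidation (chromosome 15, 4026383 to 4155344), had 284, 307 and 289 CPM with Dnmt3a(+/+) BM and 242, 147, 228 and 231 CPM with Dnmt3a(+/-) BM. On the TMM scale every tumor with Dnmt3a(+/-) BM was lower, and replicate 2 was the lowest by far. The log2 fold change of Oxct1 on library size alone was -0.28 ± 0.17 (SE). The means were 293 ± 12.5 (SD, n = 3) and 212 ± 43.7 (SD, n = 4) CPM, and the log2 fold change was -0.47 ± 0.20 (SE, adjusted p = 0.444 by edgeR), or -0.30 without Dnmt3a(+/-) replicate 2. Bdh1, which interconverts acetoacetate and hydroxybutyrate, had 97.8, 109 and 104 CPM against 96.6, 56.4, 75.4 and 90.7 CPM, with Dnmt3a(+/-) replicate 1 just under the lowest tumor of the other group. Acat1, the mitochondrial acetoacetyl-CoA thiolase, had 131, 195 and 108 CPM against 118, 92.1, 114 and 103 CPM, with overlap, and its log2 fold change of -0.44 was -0.16 without Dnmt3a(+/+) replicate 2. The ratio of Oxct1 to Bdh1 counts, 2.5 to 3.02, did not separate the groups.

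Among other genes of ketone bodies, 4 of 7 were under 0. The monocarboxylate carrier Slc16a1, which carries butyrate and ketone bodies across the cell membrane, had 234, 251 and 132 CPM with Dnmt3a(+/+) BM and 145, 91.0, 116 and 107 CPM with Dnmt3a(+/-) BM (-0.84 ± 0.26, SE). The groups overlapped through Dnmt3a(+/+) replicate 3 and Dnmt3a(+/-) replicate 1. Hmgcll1, a lyase found outside mitochondria, stood at 0.95 ± 0.41 (SE).

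Ehhadh and Hsd17b4 encode the bifunctional enzymes that hydrate and dehydrogenate acyl-CoA in peroxisomes, in opposite stereochemistry, and over all 7 tumors their log2 fold changes had opposite signs. Ehhadh (chromosome 16, 21761287 to 21787807) had 25.3, 34.0 and 17.3 CPM with Dnmt3a(+/+) BM and 16.8, 13.4, 19.8 and 15.2 CPM with Dnmt3a(+/-) BM, at -0.65 ± 0.26 (SE, adjusted p = 0.433 by edgeR). It stood at -0.39 without Dnmt3a(+/+) replicate 2, and its difference was -0.96 within BMT18 and 0.0051 within BMT8. Hsd17b4 (chromosome 18, 50128201 to 50196269) had 66.1, 62.7 and 74.4 CPM against 73.8, 98.8, 78.4 and 93.9 CPM, at 0.35 ± 0.16 (SE, adjusted p = 0.466 by edgeR). Only Dnmt3a(+/+) replicate 3 and Dnmt3a(+/-) replicate 1 kept the groups of Hsd17b4 from being apart.

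On library size alone Hsd17b4 stood at 0.57 ± 0.19 (SE), and it stayed above 0 under every alternative run, from 0.29 to 0.44 when 1 tumor was left out. The ratio of Hsd17b4 to Ehhadh counts was 2.61, 1.84 and 4.31 with Dnmt3a(+/+) BM and 4.38, 7.36, 3.97 and 6.17 with Dnmt3a(+/-) BM. It was higher in 3 of 4 tumors with Dnmt3a(+/-) BM than in any with Dnmt3a(+/+) BM, and this ratio too was chosen after the values were seen. Acaa1a, the peroxisomal thiolase, had 101, 90.6 and 113 CPM against 93.9, 72.7, 82.3 and 94.6 CPM (-0.25 ± 0.15, SE).

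In a longer list of 17 tested peroxisomal oxidation genes, 14 were under 0 (median -0.14), 3 of them with an unadjusted p under 0.05, and 1 was higher at that level. On library size alone 6 of the 17 were under 0 and the median was 0.06. Acot8, a thioesterase that releases acids from CoA, had 41.2, 41.1 and 47.7 CPM against 27.0, 25.7, 27.1 and 30.7 CPM without overlap, at -0.65 ± 0.13 (SE). Its adjusted p by DESeq2 was 0.0125, and it ranged from 0.0228 to 0.228 with 1 tumor left out, highest without Dnmt3a(+/+) replicate 2 and over 0.05 in 6 of 7 cases. Acaa1b, a second thiolase gene that shares sequence with Acaa1a, stood at 1.41 ± 0.59 (SE) at under 0.5 CPM in every tumor, where the division of reads between the copies is uncertain. Peroxisome biogenesis genes were 13 of 17 under 0 with a median of -0.09, with Pex7 at -0.45, and on library size alone 5 of 17 were under 0 with a median of 0.11.

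The acyl-CoA synthetases overlapped between groups. Acsl5, of mitochondria and endoplasmic reticulum, ran from 164 to 204 CPM and from 160 to 199 CPM (-0.12 ± 0.15, SE). Acsl1 had 50.1, 40.8 and 30.8 CPM against 70.8, 31.3, 42.9 and 31.9 CPM (0.12 ± 0.32, SE), with Dnmt3a(+/-) replicate 1 alone above the other group. Without that tumor Acsl1 stood at -0.18. In the other 15 tested genes of fatty acid uptake, binding and activation, 8 were under 0, and 5 were on library size alone, with Acsm3, a medium-chain acyl-CoA synthetase, at -1.30 ± 0.52 (SE) and Acsl4 at 0.93 ± 0.48 (SE). Without Dnmt3a(+/+) replicate 2 Acsm3 stood at -0.70, and its difference was -2.03 within BMT18 and -0.085 within BMT8. Acsl4 stood at 0.35 without Dnmt3a(+/-) replicate 2. The liver-type binding protein Fabp1 was at or near 0 in all tumors.

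Per kilobase of exon, Ppara and Ppargc1a had the lowest levels of the 29 genes with Dnmt3a(+/+) BM, at 0.243 and 2.57 CPM per kb. Ppara, the receptor that drives fatty acid oxidation in liver, had 0.994, 1.5 and 0.306 CPM with Dnmt3a(+/+) BM and 0.848, 0.509, 0.508 and 0.514 CPM with Dnmt3a(+/-) BM. These rest on as few as 10 counts in a tumor, and the groups overlapped (-0.66 ± 0.56, SE). Pparg, known in the colon as a receptor of differentiated epithelium, had 27.6, 44.9 and 64.1 CPM against 27.2, 19.3, 34.4 and 34.1 CPM, at -0.66 ± 0.31 (SE, adjusted p = 0.483 by edgeR). Its value without Dnmt3a(+/+) replicate 3 was -0.34, as that tumor was the highest. Ppargc1a, the coactivator of mitochondrial genes, had 17.7, 22.8 and 10.2 CPM against 16.4, 13.3, 21.0 and 14.0 CPM, so the range with Dnmt3a(+/-) BM lay inside that of the other group (-0.06 ± 0.30, SE).

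Of 17 other tested receptors and cofactors, 11 were under 0 (median -0.14), and on library size alone 5 were, with a median of 0.04. Ppard, the widely expressed PPAR form, had 101, 105 and 75.0 CPM with Dnmt3a(+/+) BM and 90.3, 56.8, 72.4 and 51.5 CPM with Dnmt3a(+/-) BM (-0.47 ± 0.23, SE), and its partner Rxra stood at -0.19 ± 0.29 (SE). Esrra, a receptor that works with Ppargc1a on oxidation genes (chromosome 19, 6910977 to 6921813), had 231, 192 and 195 CPM against 126, 106, 144 and 135 CPM. No tumor overlapped, and the log2 fold change was -0.69 ± 0.16 (SE, adjusted p = 0.361 by edgeR). DESeq2 gave an adjusted p of 0.0313 for Esrra, which lay between 0.0628 and 0.257 with any 1 tumor left out, highest without Dnmt3a(+/+) replicate 1. Hnf4a, an identity factor of gut epithelium that also binds near such genes, had 479, 765 and 412 CPM against 290, 255, 378 and 291 CPM, without overlap (-0.86 ± 0.25, SE; -0.56 without Dnmt3a(+/+) replicate 2).

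Known PPAR targets outside the oxidation enzymes were divided, with 5 of 9 tested under 0 and a median of -0.02, which was 0.20 on library size alone. Pdk4, the kinase that shuts pyruvate dehydrogenase when fat is burned, had 2.20, 1.36 and 0.673 CPM with Dnmt3a(+/+) BM and 3.19, 12.5, 8.71 and 3.41 CPM with Dnmt3a(+/-) BM. All 4 values were above the other group, at 2.30 ± 0.66 (SE, adjusted p = 0.373 by edgeR). By DESeq2 Pdk4 rose with an adjusted p of 0.0124, where 1.57% of all genes rose, and that value ran from 0.00143 to 0.137 with 1 tumor left out, highest without Dnmt3a(+/+) replicate 2 and also over 0.05 without Dnmt3a(+/+) replicate 3 or Dnmt3a(+/-) replicates 2 or 3. Creb3l3, a lipid-responsive transcription factor, stood at -1.26 ± 0.36 (SE), with an adjusted p by DESeq2 of 0.0472 that reached 0.333 without Dnmt3a(+/+) replicate 1. Of malonyl-CoA control, Mlycd, which degrades the inhibitor of Cpt1a, stood at -0.39 ± 0.18 (SE), and Cpt1c, the brain form of Cpt1, at 1.56 ± 0.56 (SE) with at most 3.26 CPM.

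**Figure D4:**
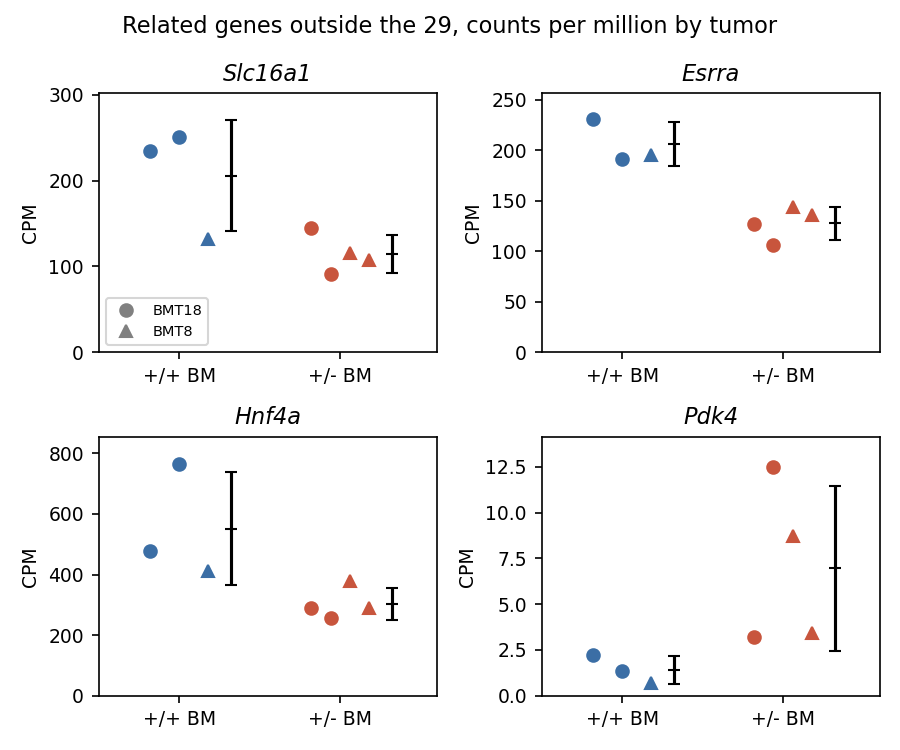
CPM of 4 related genes in each tumor by donor Dnmt3a genotype (circles BMT18, triangles BMT8; black bars, mean ± SD of 3 and 4 tumors). Esrra and Hnf4a lie lower and Pdk4 higher with Dnmt3a(+/-) BM without overlap, and Slc16a1 overlaps between groups.

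Summed by role, the mitochondrial oxidation genes made up 2421 to 2591 CPM with Dnmt3a(+/+) BM and 1639 to 2025 CPM with Dnmt3a(+/-) BM. The ketone body enzymes made up 501 to 611 CPM and 296 to 456 CPM. For both, all tumors with Dnmt3a(+/-) BM lay below the other group on the TMM scale. On library size alone the median log2 fold change of mitochondrial oxidation was -0.15 and that of ketone body enzymes -0.25. The peroxisomal genes summed to 187 to 205 CPM and 180 to 204 CPM with overlap, while their mean log2 CPM, which weights the 3 genes equally, was 5.72 to 5.86 and 5.52 to 5.68 without overlap. Median log2 fold changes were -0.35 for mitochondrial oxidation, -0.44 for ketone body enzymes, -0.25 for peroxisomal oxidation, 0.00 for acyl-CoA synthetases and -0.66 for PPAR regulators, against 0.00 for all genes tested. The median of PPAR regulators is the value of Ppara, which rested on few counts, while Pparg stood at -0.66 and Ppargc1a at -0.06. Mean log2 CPM of the PPAR regulators differed by -0.34, with overlap between groups.

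Other mitochondrial genes are a point of reference. TCA cycle genes had 15 of 16 under 0 with a median of -0.22 (10 of 16 and -0.022 on library size alone), including Cs, citrate synthase, at -0.41 ± 0.14 (SE) and Idh3a at 0.09 ± 0.17 (SE). Genes of the outer membrane, import and chaperones had 11 of 16 under 0 with a median of -0.16 (8 of 16 and 0.054 on library size alone), with Vdac3 at -0.35 and Hspd1 at 0.55. Dehydrogenases for other acyl-CoA had 6 of 8 under 0 with a median of -0.24 (4 of 8 and -0.045 on library size alone), and 0 of 8 had an unadjusted p under 0.05, with Acad8 at -0.34 and Acadsb at 0.13. In none of these lists was the difference from the 29 genes tested.

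**Figure D5:**
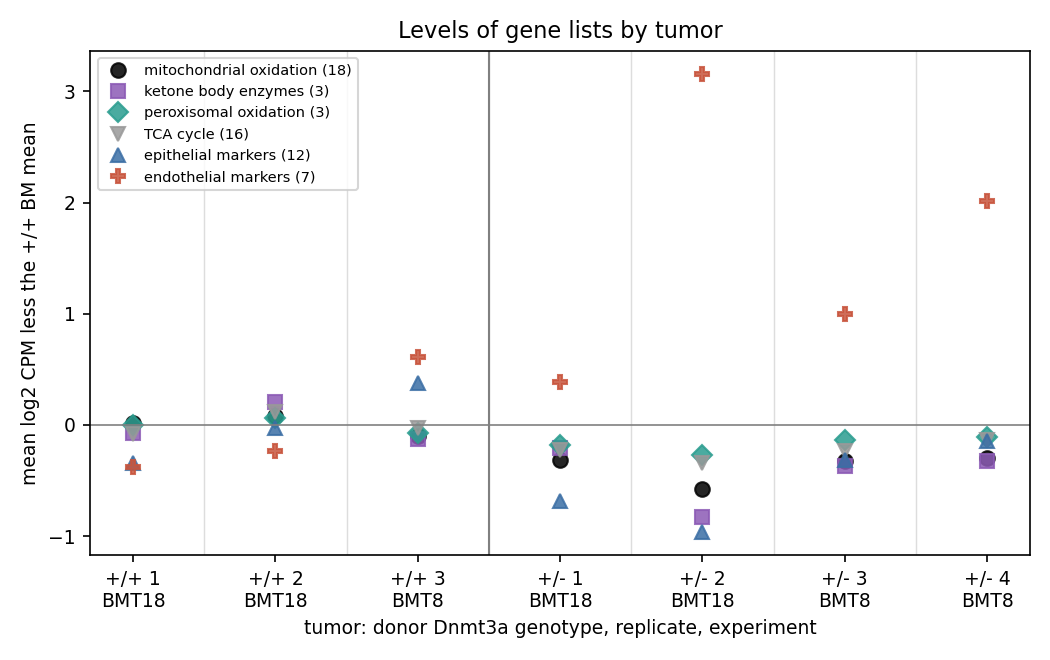
Mean log2 CPM of gene lists in each tumor less the mean of the 3 tumors with Dnmt3a(+/+) BM (number of genes in brackets; experiment under each tumor). Mitochondrial oxidation genes lie below 0 in all 4 tumors with Dnmt3a(+/-) BM and lowest in replicate 2, where epithelial markers are lowest and endothelial markers highest.

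The experiments gave different pictures in number. Within BMT18, 27 of the 29 genes were lower with Dnmt3a(+/-) BM (51.2% of all genes), and within BMT8, where a single tumor with Dnmt3a(+/+) BM was available, 20 of 29 were lower (50.7% of all genes). The mean log2 CPM of mitochondrial oxidation genes differed by -0.49 in BMT18 and by -0.21 in BMT8, that of ketone body enzymes by -0.58 and -0.22, and that of PPAR regulators by -0.64 and 0.17. The difference in effect between experiments had an unadjusted p under 0.05 in 3 of the 29 genes, Hadh, Decr1 and Ppargc1a, against 4.62% of all genes, and in 0 after adjustment (adjusted p = 1.00 by edgeR for the lowest). Ppargc1a stood at -0.44 in BMT18 and 0.74 in BMT8. Among marker lists, the mean log2 CPM of epithelial markers differed by -0.64 in BMT18 and -0.61 in BMT8, and that of endothelial markers by 2.08 and 0.90. Other lists turned direction, with smooth muscle markers at -1.18 and 5.95, leukocyte markers at 1.01 and -0.78 and macrophage markers at 1.27 and -0.52.

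Colonocyte state and other cell types were measured beside these genes. Of 12 mature colonocyte markers 11 were under 0 (median -0.94), with Cdhr5 at -0.94, Car1 at -0.71 and Slc9a3 at 3.02 (1.57 without Dnmt3a(+/-) replicate 2), and the summed level was 1365 to 1889 CPM and 607 to 1100 CPM. Their mean log2 CPM was lower with Dnmt3a(+/-) BM within BMT18 (-1.23) and higher within BMT8 (0.95). Goblet cell markers were 7 of 7 under 0, at 1583 to 4338 CPM and 659 to 2373 CPM, with Spink4 at -1.13. Fibroblast markers were 8 of 8 above 0 (175 to 342 CPM and 250 to 1077 CPM; Pdgfra 2.10, and 1.0 without Dnmt3a(+/-) replicate 2). Smooth muscle markers were 3 of 6 under 0 (22.6 to 909 CPM and 243 to 1167 CPM; Tagln -0.19, Actg2 0.39). Leukocyte markers were 4 of 5 above 0 (31.7 to 81.4 CPM and 31.7 to 136 CPM; Ptprc 0.26, Coro1a -0.12, Laptm5 0.80), and macrophage markers 6 of 7 (52.8 to 111 CPM and 54.5 to 239 CPM; Mrc1 -0.55, C1qa 0.83). Neutrophil markers were 4 of 5 under 0 (78.5 to 142 CPM and 71.0 to 129 CPM; S100a9 -0.26, Retnlg 0.10). The part of these differences in the levels of the 29 genes was not tested.

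Of cell types with much fatty acid oxidation or fat storage outside the gut, adipocytes and hepatocytes were examined, and their markers were low. The adipocyte markers Adipoq, Plin1 and Lep were at or near 0 CPM (Adipoq at most 0.225 CPM), and 3 of 8 adipocyte markers could be tested, with Cidec at -0.78 and Fabp4, which endothelial cells also express, at 1.63, for a summed level of 5.11 to 7.79 CPM and 7.35 to 11.1 CPM. Of 5 hepatocyte markers 2 were tested, Ttr at -0.50 and Alb at 2.17. Alb was higher without overlap and had an adjusted p under 0.05 by DESeq2, where 1.57% of all genes were higher. Apoa1 was at most 0.189 CPM, and the summed level was 14.4 to 32.1 CPM and 11.1 to 26.0 CPM. Enteric neuron and glia markers had 2 of 6 tested (1.56 to 2.97 CPM and 2.67 to 6.80 CPM; Uchl1 1.15).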

How the data were processed

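RNA from 7 whole colon tumors was sequenced from poly(A)-enriched libraries made with a directional kit. Per the submitters' processing notes, Trimmomatic, FastQC, STAR, RSEM and DESeq2 were used with mm10; the annotation release is not given in the sources used here. The authors deposited expected counts per gene without normalization, all of them whole numbers (100.0%), with 1 column per tumor, matched here by name. Lines without a symbol held 0.104% of the counts.

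The 29 genes and all other lists were chosen with earlier results of these data known. Outside the 29, the text names 12 set genes and, in each list, the gene with the lowest unadjusted p in each direction, some of which are not reported here; Slc16a1, Hnf4a, Fabp1, Plin1, Lep, Apoa1, Creb3l3 and the ratios were chosen after their values were seen.

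Groups were compared by edgeR's quasi-likelihood test (version 4.0.16, R 4.3.3) with TMM scaling, filterByExpr and Benjamini-Hochberg adjustment over 15810 genes, without covariates. DESeq2 (1.42.0) gave an adjusted p for 16377 genes. Mean log2 CPM used a prior count of 2. Both tools were tested on a single simulated data set, drawn with the dispersions and library sizes of the edgeR fit. There DESeq2 recovered more of the changed genes than edgeR but also made many more false calls. In that set edgeR recovered none of the genes given the smaller of the set folds. As its setting came from the edgeR fit, it cannot rank the tools in general. Genes that pass by DESeq2 alone are to be read with these false calls and this setting in mind. An exact two-sided permutation test over the 35 splits of the tumors cannot give a p below 0.0286, and its lowest value adjusted over all genes was 0.485. Alternatives were other scalings and filters, experiment or replicate number as a term, each tumor left out, and BMT18 alone. Totals were 38472738 to 64314999 counts per tumor. The p-values measure the spread between these tumors. Gene positions and exon lengths follow GENCODE release M21 (GRCm38, which is mm10).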

Additional observations from a re-analysis of the deposited data

Results flagged for a closer look

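Of 34 values examined in the 4 tumors with Dnmt3a(+/-) BM, 3 had a tumor whose gap to the nearest other took up most of the range of the group. Chance gives about 1 such group in 20, and the values are not independent. Oxct1 in Dnmt3a(+/-) replicate 2 was at 147 CPM, with the other 3 tumors at 228 to 242 CPM. In the same tumor the mean log2 CPM of the 18 mitochondrial oxidation genes was 6.32, with the others at 6.58 to 6.60. Epithelial markers summed to 11077 CPM in that tumor, the lowest of the 7, and their part in these values was not tested. Ppara in Dnmt3a(+/-) replicate 1 was at 0.848 CPM, with the others at 0.508 to 0.514 CPM. No difference in effect between experiments passed an adjusted p of 0.05.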

How the results depend on the processing

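No alternative made edgeR call any of the 29 genes, and DESeq2 by adjusted p alone gave 1 (Slc25a20). Of 435 single-gene values under the alternatives, 420 kept the direction and 15 reversed, in 5 genes; the cause was not tested. With 7 tumors, differences of this size did not pass adjustment over all genes, and BMT8 held 1 tumor with Dnmt3a(+/+) BM.

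The number of genes lower at an unadjusted p under 0.05 was 9, and it was 4 with DESeq2, 1 with library size only, and 1 to 11 with 1 tumor left out. The number higher was 0, and it was 1 with library size only, 1 with RLE size factors, and 0 to 1 with 1 tumor left out. The number lower without overlap was 8, and it was 2 with library size only. It was 21 in BMT18 alone and 8 to 17 with 1 tumor left out. It was 17 without both Dnmt3a(+/+) replicate 3 and Dnmt3a(+/-) replicate 2 (chosen after seeing the data). With fewer tumors any gene is less likely to overlap. The share of all genes is not given for these alternatives, so their counts are not comparable with the 8.

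Relative to epithelial markers the median of mitochondrial oxidation was 0.18, of ketone body enzymes 0.13, of peroxisomal oxidation 0.28, of acyl-CoA synthetases 0.50 and of PPAR regulators 0.13. Relative to TCA cycle genes the medians were -0.12 for mitochondrial oxidation, -0.17 for ketone body enzymes, -0.015 for peroxisomal oxidation and -0.17 for PPAR regulators. With library size only, mitochondrial oxidation was at -0.15 and peroxisomal oxidation at -0.037. Without both of those tumors, peroxisomal oxidation was at -0.090 and PPAR regulators at -0.24. With 1 tumor left out, peroxisomal oxidation ran from -0.33 to -0.15 and PPAR regulators from -0.62 to -0.13.

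With library size only, Cpt2 was at 0.11, Eci2 at 0.11, Acsl5 at 0.088 and Ppargc1a at 0.12. Without both tumors Cpt2 was at 0.032. With 1 tumor left out, Cpt2 ran from -0.24 to 0.046, Eci2 from -0.14 to 0.024, Acsl1 from -0.18 to 0.30 and Ppargc1a from -0.32 to 0.21. Ppargc1a was at 0.012 with experiment as a covariate.

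With the replicate number as a block, 6 of the 29 genes were lower at an unadjusted p under 0.05, 26 were under 0, 0 were called, and Ppargc1a was at 0.044. Deviations of same-numbered tumors from their group means correlated at 0.57, 0.07 and -0.04, and not every tumor correlated best with its own number, so the tumors share only a number and were not taken as pairs.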
